A study of Mus musculus with 8 samples.

Results

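Gene counts of 2 kinds of control were compared in EO771, a line of mouse breast cancer cells. The 4 control libraries were chosen by their labels from the 8 libraries of the series. Vehicle libraries, replicates 4 and 5, came from cells kept for 48 h in the solvent used for 12-HETE, which was 2% DMSO in saline according to the methods of the study. Vector libraries, replicates 1 and 2, came from cells transduced with the empty vector that served as control for ADAR1 p150 overexpression. The other 4 libraries came from cells given 100 nM 12-HETE, a lipid product of 12-lipoxygenase, or transduced with ADAR1 p150, an RNA-editing enzyme. The vector cells were not stated to have received DMSO and the vehicle cells were not stated to carry a vector. The 2 kinds of control belonged to separate experiments and shared no replicate number, so the kind of control and the experiment cannot be told apart. The labels do not say whether 2 libraries of a kind came from separate cultures. The p-values set differences against the spread within groups, estimated over all 8 libraries, and this spread may be technical.

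A control library carries what a cell line expresses while it grows, such as the ribosomal proteins and elongation factors of translation, the actin and tubulin cytoskeleton, the histones copied with DNA, and the structural RNAs of the ribosome and of the particle that targets proteins for secretion. DMSO is a solvent for lipids, and an empty vector carries the delivery sequences without the gene of interest. Interferon-stimulated genes, whose products sense or restrict viral nucleic acid, are often examined after transduction because the cell can detect foreign nucleic acid.

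The total count was between 1101767 and 1201351 in the 4 control libraries, and 3 counts corresponded to between 2.50 and 2.72 CPM, the count scaled to a fixed library total. These totals were of deposited counts. The methods name duplicate removal for the editing analysis and do not state whether it was applied before these counts. Intervals of shares of counts, and floors, reflect the error of counting alone. Intervals of log2 fold changes came from the edgeR fit described below, which includes the spread between libraries. The test was run on 6901 of 49997 genes, those whose mean over the 8 libraries reached 10 counts. All 8 libraries were fitted together with edgeR's quasi-likelihood test, and p-values were adjusted over all tested genes by the Benjamini-Hochberg method. A call needed a 2-fold change and an adjusted p under 0.05. The mean chi-square per gene between replicates was 1.52 in vehicle and 1.39 in vector, above the 1 of pure sampling, so every library entered as its own sample. Here AY036118, Rn7s1 and Rn7s2 were left out.

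One annotated RNA took a large part of every control library. AY036118, which the annotation lists as a long non-coding RNA gene on chromosome 17 of GRCm38 (39848112 to 39898385, minus strand), received 46.0% of the counts in vehicle replicate 4 and 48.2% in vehicle replicate 5. In the vector libraries it received 47.4% and 44.4%. The 95% Wilson intervals of these shares spanned less than the differences between libraries, from 45.87% to 46.06% in the first of them. The 2 kinds overlapped, and vector over vehicle was at -0.01 on the log2 scale (standard error 0.07, adjusted p = 0.972). Protein-coding nuclear genes took between 28.2% and 31.1% of the counts, long non-coding RNA genes other than AY036118 between 18.4% and 21.3%, and mitochondrial genes between 0.534% and 0.769%. Without AY036118, between 389 and 519 genes held 50% of the remaining counts, fewest in vector replicate 1.

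The 7SL RNAs, the RNA core of the signal recognition particle, were counted at Rn7s2 and Rn7s1. Rn7s2 had 9427 and 4972 counts in vehicle against 11999 and 6083 in vector. Rn7s1 had 2926 and 1268 counts in vehicle against 13792 and 1170 in vector. Vector replicate 1 was the highest library for both genes, and the kinds of control overlapped. These near-identical copies share sequence, so the split of reads between them is uncertain. Together they took 2.25% of vector replicate 1 and between 0.519% and 1.08% of the other control libraries.

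Among the next genes by count were several that lie opposite a well-known gene. Gm38733, a non-coding gene on the plus strand of chromosome 5, had 13168 and 13103 counts in vehicle against 14129 and 13137 in vector. Its span overlaps by 401 bases that of Actb, which encodes cytoplasmic beta-actin on the minus strand and had 658 and 861 counts in vehicle against 364 and 486 in vector. Eno3, the muscle form of enolase, had between 6679 and 6945 counts, and Pfn1, which encodes the actin-binding profilin on the other strand, had between 81 and 130. Gm41396 had between 4321 and 4470 counts, and the alpha-tubulin gene Tuba1b opposite to it between 39 and 67. Tigit, a receptor of lymphocytes, had between 3283 and 3537 counts, and Zbtb20 opposite to it between 13 and 33, while the leukocyte marker Ptprc had 0 counts in all 4 control libraries.

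Of the 20 genes with the highest mean count in the controls, 15 had a gene on the opposite strand that overlapped theirs by at least 200 bases. Of the 20 protein-coding genes with the highest count per kb of exon, 19 did. Over all tested genes the share was 50.8%. The highest counts per kb of exon among protein-coding genes were those of Eno3, with a mean of 3891 counts per kb, Tigit with 3687 and Gps2 with 2202. Actb stood at 221 counts per kb. Whether reads were assigned by strand is not given in the sources used here, and without strand the reads of a gene and of its partner cannot be told apart. The methods describe directional libraries and the labels name another kit. A gene's count in this table therefore need not be the level of its own transcript. Gapdh, with no gene opposite by this measure, had between 13 and 22 counts in the 4 control libraries. Whether the doubt about strand reaches such genes was not tested, nor was the part of strand in the results. Across the 20 genes with the highest counts, the log2 fold change of vector over vehicle had a median of 0.12, and 18 were within 0.3 of 0.

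Within such pairs, the less counted gene took a smaller share with vector. This pattern was noticed in the data, and the share has no test. Actb took 4.76% of the counts of the Actb and Gm38733 pair in vehicle replicate 4 and 6.17% in vehicle replicate 5, against 2.51% and 3.57% in the vector libraries. Hspa5, which encodes an endoplasmic reticulum chaperone, took 5.38% and 6.86% of its pair with Rabepk in vehicle, against 3.23% and 4.48% in vector. Hnrnpab, an RNA-binding protein gene, took 10.7% and 9.91% of its pair with Phykpl in vehicle, against 8.08% and 7.89% in vector. The groups did not overlap in these 3 pairs. For Gtf3a, which encodes a transcription factor for 5S ribosomal RNA, the shares were 12.7% and 11.4% against 11.2% and 11.5%, and the groups overlapped. Among the 15 pairs, the share was lower in both vector libraries than in both vehicle libraries in 10, and its mean was lower with vector in 15. The same count was not made over all pairs, so how usual 10 of 15 is was not tested. By another measure, normalized CPM, both vector libraries lay below both vehicle libraries in 23.3% of all tested genes.

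**Figure D1:**
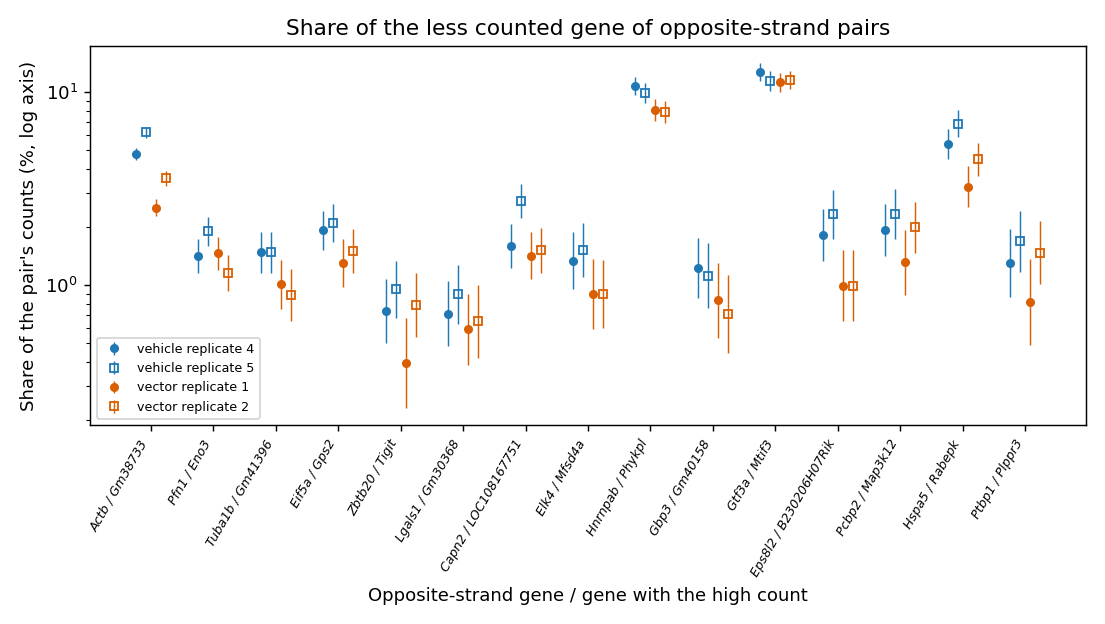
Share of each opposite-strand pair's counts (percent, log axis) that fell on the less counted gene, for the 15 pairs of the 20 genes with the highest counts, in the 4 control libraries (blue, vehicle; orange, vector; circles, replicates 4 and 1; squares, replicates 5 and 2), with 95% Wilson intervals for counting error only. Actb took 4.76% and 6.17% with vehicle and 2.51% and 3.57% with vector.

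Over all tested genes, 534 opposite-strand pairs had members that differed at least 5-fold in mean count. Of 508 genes that were the less counted member, 65.6% were lower with vector, with a median log2 fold change of -0.19. Of 509 genes that were the more counted member, 13.8% were lower, with a median of 0.12. The less counted members together took 6.02% and 6.92% of the counts of both in vehicle, and 5.05% and 5.48% in vector. Of the less counted members 94.7% were protein-coding, as were 44.4% of the more counted members. Protein-coding genes with no opposite-strand gene had a median of -0.22 (2797 genes, 67.9% lower), against 0.02 for those with one (2071 genes, 46.4% lower). The 1601 long non-coding RNA genes had a median of 0.12, and 29.0% were lower. The median of all tested genes was -0.01, with 3522 lower and 3379 higher with vector. Replicates of a kind also differed in these genes. Protein-coding genes with no opposite-strand gene had a median log2 difference of 0.13 between vehicle replicates 5 and 4 and of 0.09 between vector replicates 2 and 1.

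Vector and vehicle differed in few single genes. With an adjusted p under 0.05 there were 8 genes, which is 0.116% of those tested, and 7 of them were lower with vector. A 2-fold change or more was seen in 3 of the 8, or 0.0435% of tested genes, which were Mtpn, H3c14 and H4c2. Before adjustment, 795 genes had a p under 0.05, 549 of them lower (7.96% of tested genes) and 246 higher (3.56%) with vector. With groups of 2, the libraries of the kinds did not overlap in 1606 genes that were lower with vector (23.3%) and in 1411 that were higher (20.4%).

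Of the 8 genes, 5 were abundant transcripts of the cytoskeleton, translation and matrix, or a structural RNA, all lower with vector by less than 2-fold. Actb (chromosome 5, 142903115 to 142907976) had 638.8 ± 107 normalized CPM in vehicle and 378.5 ± 65.3 in vector (SD, n = 2 libraries in each group). It fell by 0.75 on the log2 scale (standard error 0.14, adjusted p = 0.0366). Rpph1, the RNA subunit of the RNase P enzyme that trims transfer RNA (chromosome 14, 50807447 to 50807771), had 484 and 701 counts in vehicle against 259 and 370 in vector. It fell by 0.83 on the log2 scale (standard error 0.17, adjusted p = 0.0366). For both genes the higher vector library lay below the lower vehicle library, and vehicle replicate 5 was the highest of the 4.

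Eef2, which encodes the elongation factor that moves the ribosome along the message (chromosome 10, 81176631 to 81182509), had 339 and 380 counts in vehicle against 172 and 242 in vector. Rps2, a protein of the small ribosomal subunit (chromosome 17, 24718121 to 24721927), had 164 and 227 counts against 98 and 113. Fn1, which encodes the matrix protein fibronectin (chromosome 1, 71585473 to 71653280), had 427 and 544 counts against 278 and 332. None of the 3 overlapped between the kinds. Their log2 fold changes were -0.71 for Eef2, -0.80 for Rps2 and -0.59 for Fn1, with an adjusted p of 0.0366 for each from edgeR's quasi-likelihood test. Mtpn, which encodes myotrophin, an ankyrin-repeat protein that binds actin capping protein (chromosome 6, 35508824 to 35539888), had 28 and 26 counts in vehicle against 7 and 6 in vector. Among the 6 of the 8 genes whose kinds did not overlap its change was the largest, at -1.95 (95% interval -2.80 to -1.11, adjusted p = 0.0366). At 6 and 7 counts a library, the size of that difference is known only within this interval.

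The other 2 calls were histone genes and each rested on 1 library. H3c14, a histone H3 gene (chromosome 3, 96246685 to 96247348), had 23 and 184 counts in vehicle against 23 and 5 in vector. H4c2, a histone H4 gene (chromosome 13, 23756937 to 23757386), had 1 and 7 counts in vehicle against 88 and 4 in vector. The kinds of control overlapped in both. The log2 fold change of H3c14 was -2.78 (adjusted p = 0.0366) and was -0.62 (adjusted p = 0.924) without vehicle replicate 5. For H4c2 it was 3.58 (adjusted p = 0.0366) and 0.05 (adjusted p = 0.995) without vector replicate 1. Other histone genes also varied between replicates. H2bc9 had 81 and 4 counts in vehicle against 105 and 1 in vector, and H2bc15 had 30 and 0 against 143 and 4. Of 27 tested replication-dependent histone genes, whose products package newly made DNA, 18 were lower and 9 higher with vector. The number of calls depended on the fit, with 0 calls in DESeq2 (232 genes with an unadjusted p under 0.05) and 0 in edgeR with a replicate block (635 genes). For the 6 genes other than histones, the adjusted p was between 0.150 and 0.799 without vehicle replicate 5 and between 0.382 and 0.555 without vector replicate 1. Between 2 and 22 genes were called when 1 control library was left out, with 22 when this was vector replicate 2, 11 without vehicle replicate 4, 4 without vector replicate 1 and 2 without vehicle replicate 5.

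**Figure D2:**
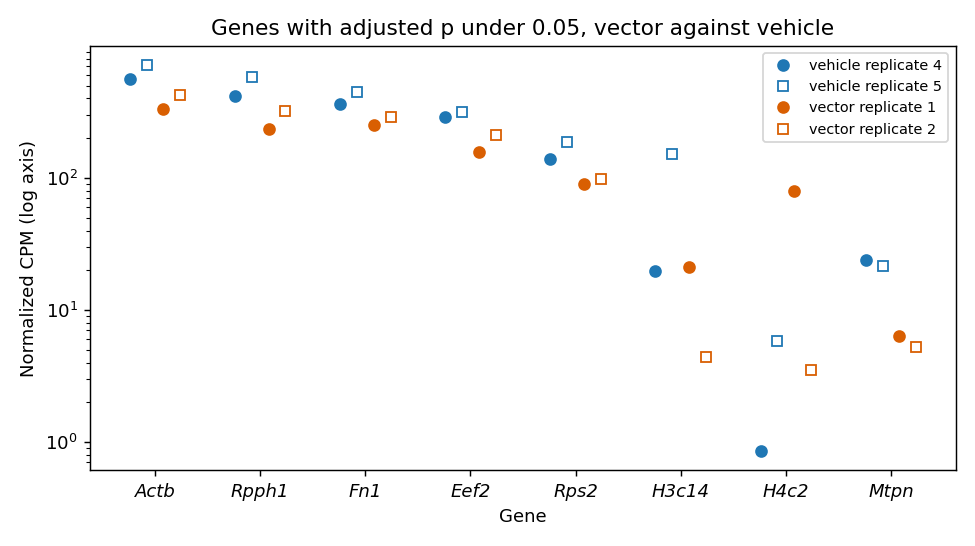
Normalized CPM (log axis) in each control library of the 8 genes with an adjusted p under 0.05, ordered by mean count (blue, vehicle; orange, vector; circles, replicates 4 and 1; squares, replicates 5 and 2). The kinds do not overlap in 6 genes, and in H3c14 and H4c2 a single library stands apart.

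Start-site sequences of RefSeq (GRCm38.p6), 250 bases before and 50 after the annotated start, were matched for 5 of the 8 genes. For Rps2 the start in that table, 24720063, lies inside the span given for the gene. Of these 5, the sequences are shown for the 3 whose counts did not overlap between the kinds, so that the shared and separate elements of genes with lower counts can be read. Capitals mark on either strand the letters TATAAA of the TATA box, the letters GGGCGG of the GC box and the letters CCAAT of the box named after them.
Eef2, chr10:81176381-81176680, plus strand: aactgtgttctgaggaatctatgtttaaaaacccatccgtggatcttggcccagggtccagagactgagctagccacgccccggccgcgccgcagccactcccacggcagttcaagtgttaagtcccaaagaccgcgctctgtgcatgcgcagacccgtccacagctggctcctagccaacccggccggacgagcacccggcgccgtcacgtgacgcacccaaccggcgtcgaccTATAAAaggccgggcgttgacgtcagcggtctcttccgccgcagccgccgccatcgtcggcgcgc
Rps2, chr17:24719813-24720112, plus strand: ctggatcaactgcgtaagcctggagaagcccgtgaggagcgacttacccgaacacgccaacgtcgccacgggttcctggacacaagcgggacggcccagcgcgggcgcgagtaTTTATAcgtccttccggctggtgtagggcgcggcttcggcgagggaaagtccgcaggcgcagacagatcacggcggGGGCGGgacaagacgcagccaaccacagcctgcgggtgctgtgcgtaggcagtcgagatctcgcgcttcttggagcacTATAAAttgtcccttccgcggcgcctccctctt
Mtpn, chr6:35539839-35540138, minus strand: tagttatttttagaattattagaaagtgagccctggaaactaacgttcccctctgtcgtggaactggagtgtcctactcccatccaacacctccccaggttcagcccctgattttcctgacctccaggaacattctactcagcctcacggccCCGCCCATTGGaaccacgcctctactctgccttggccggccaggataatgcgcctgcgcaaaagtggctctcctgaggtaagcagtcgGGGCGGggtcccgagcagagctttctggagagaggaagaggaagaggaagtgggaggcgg
Eef2 held 1 match to TATAAA, Rps2 held 2 matches to TATAAA and 1 to GGGCGG, and Mtpn held 1 to CCAAT and 2 to GGGCGG. No matches overlapped one another, although a GGGCGG and a CCAAT match adjoin in Mtpn. Of 32851 start-site sequences, 13.6% held the TATAAA letters, 37.4% the CCAAT letters and 35.7% the GGGCGG letters on either strand. No element was held by all 3 genes.

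At an adjusted p under 0.1, an added threshold chosen after seeing the data, there were 31 genes (0.449% of those tested), of which 25 were lower and 6 higher with vector. The lower genes included Eef1a1, the elongation factor that delivers transfer RNA, with 239 and 359 counts against 143 and 209 (log2 fold change -0.68, adjusted p = 0.0612). The large-subunit protein gene Rpl8 had 89 and 104 counts against 50 in each vector library (-0.86, adjusted p = 0.0532). Polr2a, the largest subunit of RNA polymerase II, had 102 and 87 counts against 44 and 50 (-0.92, adjusted p = 0.0773). Cttn, which encodes the actin-binding cortactin, had 61 counts in each vehicle library against 18 and 34 (-1.15, adjusted p = 0.0600). The keratin gene Krt8, the receptor gene Lrp1 and the cadherin family gene Fat1 had log2 fold changes of -0.81, -0.82 and -0.73. The 6 higher genes were H4c2, H3c11, Rn7s1, Gm31888, Rps23rg1 and 0610039K10Rik. In H3c11, a histone H3 gene, 1 library stood apart, with 6 and 8 counts in vehicle against 4 and 87 in vector. Gm31888, a non-coding gene, had 64 and 54 counts against 97 and 96 (log2 fold change 0.79, adjusted p = 0.0765). Of the 31 genes, 25 had no recorded gene on the opposite strand, and these include Gm31888, whose own strand is not known. Over all tested genes, 50.8% had an opposite-strand gene. Genes beyond the first 8 did not pass the threshold of 0.05.

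Among genes that averaged at least 100 counts over all 8 libraries and whose kinds did not overlap in normalized CPM, the lowest fold changes were those of Rpph1, Cct5, Rps2, Actb and Tubb5. Cct5, a subunit of the chaperonin that folds actin and tubulin, had 162 and 218 counts in vehicle against 83 and 119 in vector (log2 fold change -0.83, adjusted p = 0.0580). The beta-tubulin gene Tubb5 had 114 and 168 against 70 and 88 (-0.75, adjusted p = 0.104). The highest were Rps23rg1 (92 and 89 against 149 and 119, log2 fold change 0.65, adjusted p = 0.0954), a gene that arose from a copied ribosomal protein message and whose reads may be shared with Rps23, followed by 4 non-coding genes. Gm52682 had 84 and 87 counts against 123 and 117, Gm39520 had 92 and 137 against 158 and 161, Gm39008 had 18 and 31 against 30 and 38, and 4930557K07Rik had 107 and 121 against 165 and 147. Their log2 fold changes lay between 0.54 and 0.57 and none passed the threshold. Gm39008 reached the mean of 100 only through the treated libraries, with 298 and 282 counts with 12-HETE and 322 and 381 with ADAR1 p150. Its raw counts overlapped between the controls, and its 95% interval ran from -0.01 to 1.12. All 5 of the higher genes overlapped a gene on the opposite strand.

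**Figure D3:**
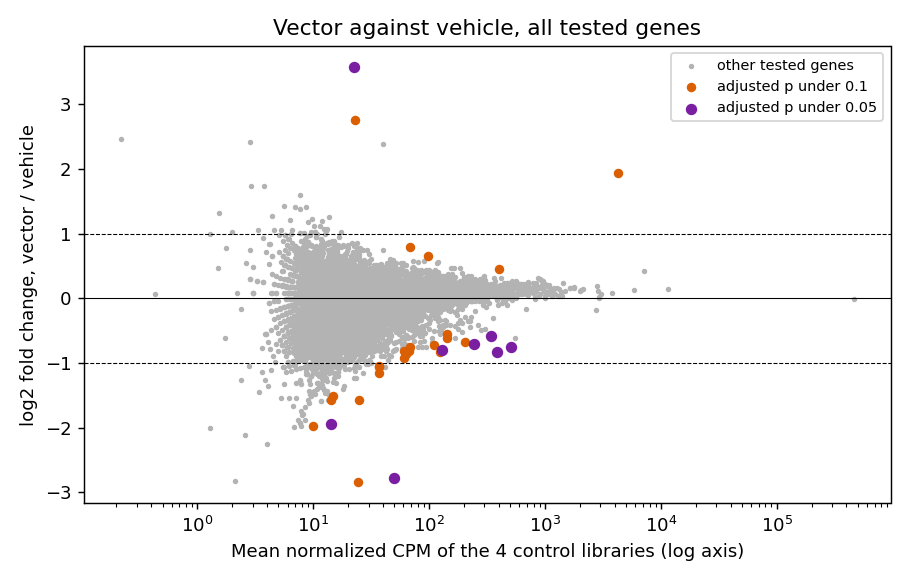
The log2 fold change of vector over vehicle (vertical axis) against the mean normalized CPM of the 4 control libraries (horizontal axis, log scale) for 6901 tested genes, with dashed lines at 2-fold. Orange and purple mark the 31 genes with an adjusted p under 0.1, the 8 under 0.05 in purple, and 25 of the 31 lie below 0.

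Gene lists were described by their counts and medians, beside those of all tested genes. They were chosen with earlier results of these data known. Each of the 18 lists with at least 5 tested genes had a median below the -0.01 of all genes. The count was 18 with another scaling, 16 with at least 10 counts in every library and 15 without vehicle replicate 5. All protein-coding genes had a median of -0.10, and those with no opposite-strand gene one of -0.22, so the lists with medians from -0.11 to -0.22 were no lower than the latter.

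Most genes of the ribosome had lower counts with vector. Of 59 tested genes of cytosolic ribosomal proteins, 55 were lower with vector and 4 were higher, with a median log2 fold change of -0.52. One of them, Rps2, had an adjusted p under 0.05, and 30 had an unadjusted p under 0.05, all lower, which is 50.8% beside 7.96% of all tested genes. In 39 of the 59 both vector libraries lay below both vehicle libraries, which is 66.1% beside 23.3%. Among protein-coding genes with no opposite-strand gene these 2 shares were higher than over all genes, at 14.5% and 35.1%. Of the 59 genes, 6 had an opposite-strand gene. Together the genes of the list took 3181 and 4031 CPM with vehicle and 2206 and 2784 CPM with vector, without TMM scaling. The highest counts were those of Rps18 (257 and 321 against 197 and 230), Rpl41 (219 and 370 against 136 and 218), Rpl18 (194 and 234 against 159 and 188) and Rps2. The replicates of a kind also differed, since 52 of the 59 genes were higher in vehicle replicate 5 than in vehicle replicate 4, with a median of 0.30. In vector, 42 were higher in replicate 2 than in replicate 1, with a median of 0.15. Without vehicle replicate 5 the median of the list between the kinds was -0.24, and without vehicle replicate 4 it was -0.72. Vector replicate 1, the lowest library of the list, also held the largest share of 7SL RNA, and the part of this in the result was not tested.

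Genes often used as references had the same median. Of 15 tested housekeeping genes, 14 were lower with vector, with a median of -0.52. Actb had an adjusted p under 0.05 at less than a 2-fold change. Eef1a1, Rplp0 (103 and 136 counts against 52 and 81) and Rpl13a (72 and 113 against 77 and 66) had an adjusted p above 0.05. In 11 of the 15 both vector libraries were below both vehicle libraries, which is 73.3% beside 23.3% of all tested genes. Among protein-coding genes with no opposite-strand gene this share was 35.1%. Gapdh, a glycolytic enzyme gene, was the 1 that was not lower, with 16 and 20 counts against 13 and 22 (log2 fold change 0.04). The list shares ribosomal genes with the one before. Of 10 mitochondrial genes, which encode parts of the respiratory chain and mitochondrial ribosomal RNA, all 10 were lower, with a median of -0.39, and none passed the threshold. ND5, a subunit of complex I, had 2889 and 4053 counts with vehicle and 2862 in each vector library, and COX1, a subunit of the terminal oxidase, had 503 and 1102 against 386 and 605. Both vector libraries lay below both vehicle libraries in 1 of the 10, beside 23.3% of all tested genes. The median was 0.05 without vehicle replicate 5 and -0.62 without vehicle replicate 4.

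Lists of growth and metabolism had medians between those of ribosomal proteins and of all genes. Of 25 tested proliferation genes, 17 were lower and 8 higher, with a median of -0.48. An unadjusted p under 0.05 was seen in 10, all lower, which is 40.0% beside 7.96% of all tested genes. Among protein-coding genes with no opposite-strand gene it was 14.5%. Top2a, which untangles replicated DNA, had 84 and 90 counts in vehicle against 44 and 64 in vector. Aurka, a mitotic kinase whose span overlaps Cstf1 on the other strand, had 104 and 117 against 100 and 134. For 12 genes of cholesterol and fatty acid synthesis the median was -0.45, with 9 lower. Fasn, the fatty acid synthase, had 56 and 74 counts against 33 and 46. For 10 genes of the hypoxia response the median was -0.36, and Ldha, which makes lactate, had 217 and 274 counts against 171 and 198. None of the genes in these 3 lists passed the threshold. Without vehicle replicate 5 the medians of proliferation and hypoxia genes were -0.27 and -0.08, and without vector replicate 1 those of cholesterol and hypoxia genes were -0.26 and -0.21.

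Stress-response lists, which could respond to a solvent or to transduction, had no gene past the threshold. In edgeR's test, 31.2% of the stress and unfolded protein genes and 38.5% of the heat shock genes had an unadjusted p under 0.05. It was 16.7% for the oxidative list, 7.69% for immediate early genes and 0% for p53 targets. All of these were lower, beside 7.96% of all tested genes and 14.5% of protein-coding genes with no opposite-strand gene. For 16 tested genes of the integrated stress and unfolded protein response the median was -0.44, with 14 lower. Ddit3, a transcription factor induced by endoplasmic reticulum stress, had 230 and 217 counts in vehicle against 239 and 232 in vector. The log2 fold change, 0.16, had a standard error of 0.13 and an adjusted p of 0.652. The chaperone gene Hsp90b1 had 92 and 103 counts against 53 and 79. For 13 heat shock protein genes the median was -0.33, and Hsp90ab1 had 266 and 348 counts against 199 and 224. For 12 genes of the oxidative and xenobiotic response the median was -0.34 with 11 lower, and Fth1, which stores iron, had 96 and 117 counts against 70 and 87. For 13 p53 targets the median was -0.27 with 7 lower and 6 higher. For 13 immediate early genes it was -0.23, and Jund had 46 and 44 counts against 55 and 58. Without vehicle replicate 5 the medians were -0.18 for the stress and unfolded protein response, -0.11 for heat shock proteins, -0.05 for p53 targets and -0.14 for immediate early genes. The first of these was -0.25 without vector replicate 1, and that of p53 targets was -0.12 and -0.08 without vector replicates 1 and 2.

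No single interferon-stimulated gene differed detectably between the kinds at this depth. Of 103 genes in the list 32 were tested, 19 were lower and 13 higher, the median was -0.19 and none had an unadjusted p under 0.05 in edgeR's test. Both vector libraries lay below both vehicle libraries in 13 of the 32, or 40.6%. This is beside 23.3% of all tested genes and 28.8% of protein-coding genes. Among protein-coding genes with no opposite-strand gene it was 35.1%, and 11 of the 32 had an opposite-strand gene. Both vector libraries lay above in 6, beside 20.4% of all tested genes. The median was 0.09 over the 15 members with at least 10 counts in every library and without vehicle replicates 5 and 4 it was -0.02 and -0.29. Ifi27l2a had 206 and 214 counts in vehicle against 231 and 203 in vector, with an overlap of Ifi27 on the other strand. The class I antigen gene H2-D1 had 125 and 145 against 87 and 116 (log2 fold change -0.33, standard error 0.17, adjusted p = 0.445). Irf7, the factor that amplifies the interferon response, had 31 and 41 against 30 and 16, with a log2 fold change of -0.56 and a 95% interval from -1.24 to 0.13. Irf5 had 163 and 149 against 154 and 141, with an interval from -0.29 to 0.30. Isg20, an RNA exonuclease, had 13 and 17 against 18 and 13, with an interval from -0.69 to 0.95. Double-stranded RNA sensors and editors had low counts. Adar had 5 counts in each vehicle library and 2 and 8 with vector, with an interval of the log2 fold change from -1.19 to 1.35. Ifih1, which encodes the sensor MDA5, had 4 and 3 counts against 3 and 5, and Zbp1 had 8 and 3 against 1 and 0. Both were under the count minimum and were not tested. For 9 tested genes of that list the median was -0.11, and it was 0.08 without vehicle replicate 5, -0.33 without vehicle replicate 4 and -0.35 without vector replicate 1.

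Genes of the arachidonate pathway, from which 12-HETE is made, had a median of -0.12 over 9 tested genes, with 5 lower and 4 higher. It was -0.35 without vector replicate 2, -0.06 without vector replicate 1 and -0.03 without vehicle replicate 4. Lpcat3, which puts arachidonate into phospholipids, had 527 and 553 counts in vehicle against 543 and 544 in vector. Alox12, which encodes 12-lipoxygenase, had 11 and 14 counts against 5 and 2, under the count minimum. Gpr31b, the gene of a 12-HETE receptor, had 0 counts in all 8 libraries, which allows up to 2.72 CPM in the shallowest control. Among immune ligands, Cd274, which encodes the checkpoint ligand PD-L1, had 55 and 57 counts against 54 and 65 (log2 fold change 0.17, 95% interval -0.30 to 0.64, adjusted p = 0.812). Sema3c, a secreted guidance factor, had 12 and 28 against 10 and 21, so its replicates differed more than the kinds. The 6 tested immune ligands had a median of -0.26, which was 0.05 without vehicle replicate 5, -0.57 without vehicle replicate 4 and -0.13 without vector replicate 1. NF-kB targets had 3 tested genes, of which Nfkb2 had 129 and 157 counts against 154 and 137.

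**Figure D4:**
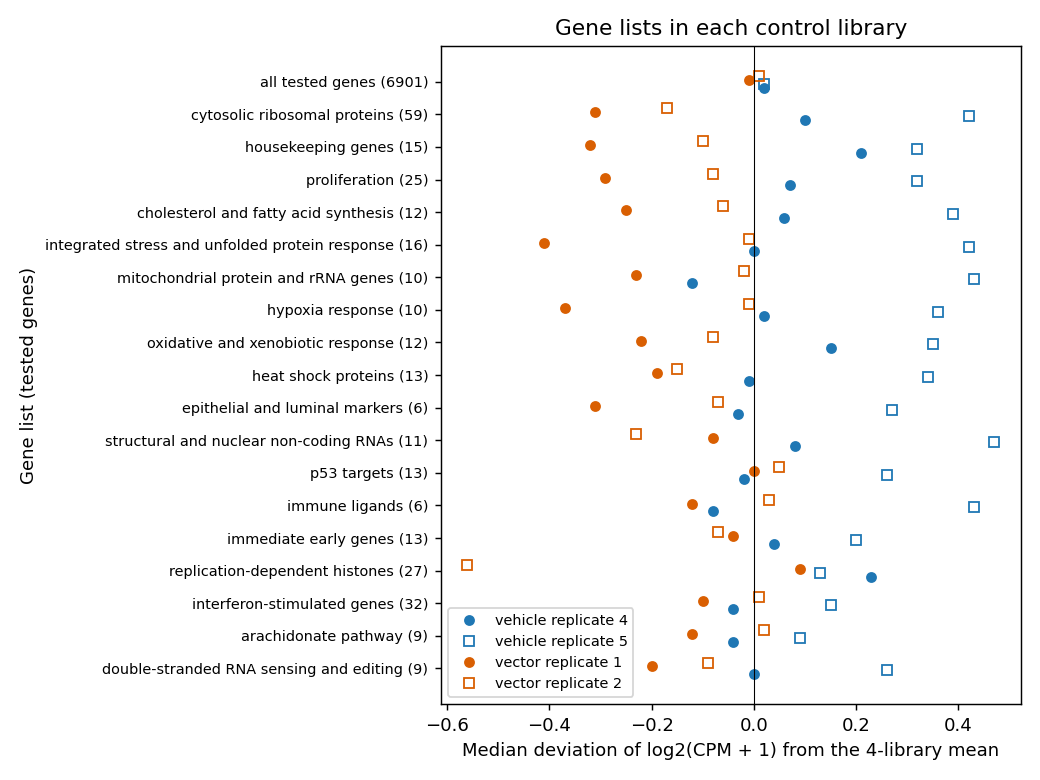
Median over the tested genes of each list of the deviation of log2(CPM + 1) from the gene's mean over the 4 control libraries (horizontal axis), for 18 lists and all tested genes (number of genes in brackets; blue, vehicle; orange, vector; circles, replicates 4 and 1; squares, replicates 5 and 2). For ribosomal proteins the medians were 0.10 and 0.42 with vehicle and -0.31 and -0.17 with vector, while all tested genes lay between -0.01 and 0.02.

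Structural and nuclear non-coding RNAs had a median of -0.29 over 11 tested genes, with 9 lower, and it was -0.68 without vehicle replicate 4 and -0.57 without vector replicate 1. Malat1, which is retained in nuclear speckles, had 104 and 144 counts in vehicle against 69 and 86 in vector (log2 fold change -0.59, adjusted p = 0.219), and Rmrp, the RNA of a nuclease related to RNase P, had 131 and 183 against 140 and 102.

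Markers were read beside the labelled line. As said above, a gene's count in this table need not be the level of its own transcript. A low or absent count of a marker therefore does not by itself show that its transcript was absent. In bulk libraries, fewer cells of a type and less RNA per cell cannot be told apart. Keratins of simple epithelium were counted in every control library, with 108, 150, 79 and 104 counts for Krt18 and 89, 116, 51 and 59 for Krt8, in the order of vehicle replicates 4 and 5 and vector replicates 1 and 2. Of the 18 epithelial and luminal markers, 6 were tested, and Cdh1, Pgr, Gata3, Elf5 and Prom1 had 0 counts in all 4 libraries. Epcam had between 1 and 4 counts. The basal marker Itga6 had between 122 and 200 counts, and the mesenchymal marker Vim had between 28 and 43. The 3 tested basal and 4 tested mesenchymal markers had medians of -0.45 and -0.38, and of these 7 genes Fn1 alone had an adjusted p under 0.05. Of 18 leukocyte markers 11 had 0 counts in all 4 libraries, Ptprc, Cd3e and Adgre1 among them, and the list summed to between 30.6 and 37.5 CPM. Of 10 endothelial markers 6 were at 0, Vwf and Tek among them, and the list summed to between 6.10 and 8.73 CPM. Of 9 fibroblast and pericyte markers 5 were at 0, and Dcn had 31 counts in each vehicle library and 8 and 28 with vector. Of 9 erythrocyte and platelet markers the 4 globin genes were at 0, and Alas2, which overlaps Apex2 on the other strand, had between 36 and 47 counts.

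Library against library, the difference between kinds was close to that between replicates for pairs with vehicle replicate 4. It was larger for pairs with vehicle replicate 5. Over all tested genes, the median absolute difference of log2(CPM + 1) was 0.251 between the vehicle libraries and 0.260 between the vector libraries. Between kinds it was 0.259 and 0.283 for the pairs with vehicle replicate 4, and 0.305 and 0.327 for those with vehicle replicate 5. A difference of at least 2-fold was seen in 4.65% and 5.58% of genes between replicates, and in between 4.81% and 10.3% between kinds. Among the 1270 genes that averaged at least 100 counts the medians were 0.127 and 0.116 between replicates and between 0.124 and 0.190 between kinds. The widest pair was vector replicate 1 and vehicle replicate 5 in each case. The 6 pairs share libraries and are given as a description.

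**Figure D5:**
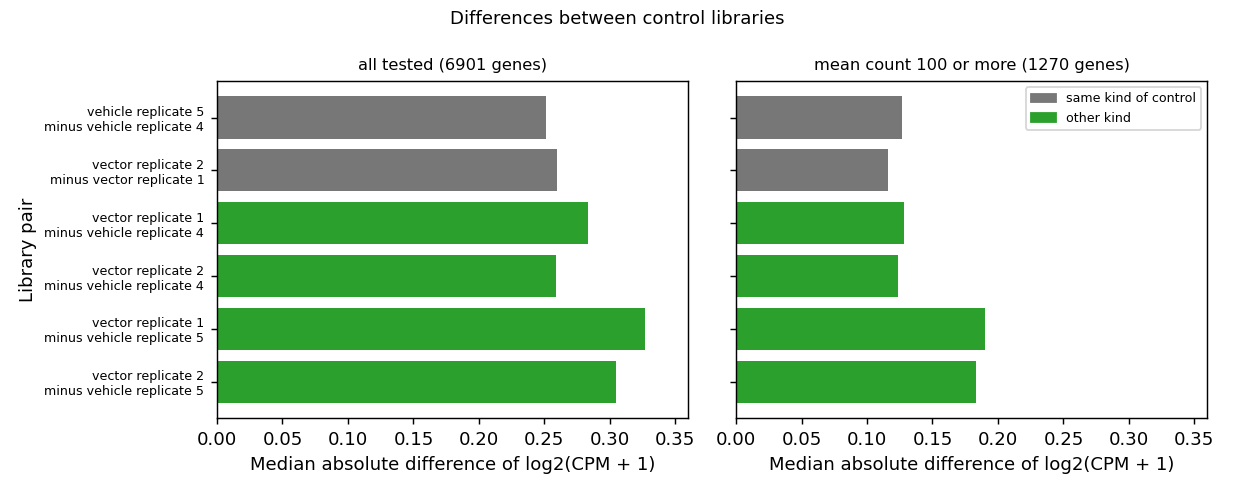
Median absolute difference of log2(CPM + 1) for the 6 pairs of control libraries (grey, same kind of control; green, other kind) over all 6901 tested genes (left) and the 1270 with a mean count of at least 100 (right). Replicates of a kind differed by 0.251 and 0.260 over all genes, and pairs of other kinds by between 0.259 and 0.327.

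The depth set which differences could be seen. The 95% interval of the log2 fold change lay within 1 of 0 for 56.4% of tested genes, so that a change over 2-fold was outside the interval for 3891 genes. The share was 17.7% of 2521 genes with a mean count from 10 to 20, 60.9% of 2162 from 20 to 50, 92.3% of 948 from 50 to 100, and 98.7% of 1051 from 100 to 500. The median standard error was 0.447 in the first of these ranges and 0.142 in the last. Of these 1270 more highly counted genes, 1 had a fitted change of at least 2-fold, which was Rn7s1.

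The choice of control changed how many genes were called for each treatment. Against vehicle, its own control, 12-HETE gave 991 genes (14.4% of those tested), 422 higher and 569 lower. Against vector it gave 1176 (17.0%), 585 higher and 591 lower. Against vector, its own control, ADAR1 p150 gave 884 genes (12.8%), 560 higher and 324 lower, and against vehicle 1084 (15.7%), 565 higher and 519 lower. These comparisons share libraries and were fitted together, and each has its own count only. The median absolute log2 fold change was 0.445 and 0.490 for 12-HETE against vehicle and vector, 0.413 and 0.459 for ADAR1 p150 against vector and vehicle, and 0.238 for vector against vehicle.

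Some genes passed the adjusted p threshold of 0.05 against one kind of control and not against the other. Actb, Eef2 and Rps2 are shown here because they differed between the kinds of control. In the shared fit, the gap between a gene's values against vehicle and against vector is that same difference. It is therefore no separate evidence. With 12-HETE, the log2 fold change of Actb was 0.25 (adjusted p = 0.182) against vehicle and 1.00 (adjusted p = 9.89e-07) against vector. For Eef2 it was -0.79 (adjusted p = 3.02e-05) against vehicle and -0.08 (adjusted p = 0.725) against vector. Rps2 with ADAR1 p150 was at 0.00 against vector (adjusted p = 0.990) and at -0.80 against vehicle (adjusted p = 0.000202). Adar with ADAR1 p150 and Cd274 with 12-HETE were called against either control. For Adar with ADAR1 p150 it was 4.68 against vector and 4.76 against vehicle, and for Cd274 with 12-HETE it was -3.27 against vehicle and -3.44 against vector, with an adjusted p of at most 4.72e-09 in these 4 tests. Irf7 fell with 12-HETE against either control, by 2.34 and 1.79 on the log2 scale. With ADAR1 p150, Irf7 was at -0.53 against vector (adjusted p = 0.326) and at -1.08 against vehicle (adjusted p = 0.0159), while the kinds of control themselves differed by -0.56 (adjusted p = 0.534).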

How the data were processed

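Whole-number counts per gene of 8 EO771 libraries, deposited by the authors without normalization, were analysed, and the 4 control libraries are reported. According to the methods, reads were paired-end, STAR aligned them to GRCm38, and featureCounts counted fragments per gene. Duplicates were removed with prinseq for the editing analysis, and whether this preceded the deposited counts is not stated. The strand setting is not given in the sources used here, and the labels and methods name different extraction and library kits. If duplicates were removed, counts are not numbers of reads.

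Genes whose mean count reached 10 over the 8 libraries were kept. TMM factors and quasi-likelihood tests came from edgeR 4.0.16 (R 4.3.3) with a coefficient per group and no block, since vector and vehicle share no replicate number. The standard error was the log2 fold change divided by the square root of F. Named genes were those with an adjusted p under 0.05, the 20 highest counts and counts per kb, 5 highest and 5 lowest fold changes at a mean count of at least 100 without overlap, up to 4 members per list and a few genes of the study. Others were chosen after their values were seen. The comparison and lists were chosen with earlier results of these data known. Symbols matched RefSeq GRCm38.p6 (100.0%), exon lengths came from GENCODE M21 (83.6% of tested genes), and strands from both. On simulated data with 200 of 6901 genes changed 4-fold, vector against vehicle, 184 were called, with 4 false calls. The simulation gave every gene the same spread between libraries. In the data, genes such as H4c2 and Rn7s1 differed far more between replicates, so these figures do not describe such genes. Alternatives included DESeq2 1.42.0, other scalings and filters, a replicate block and leaving out each control library.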

Additional observations from a re-analysis of the deposited data

How the results depend on the processing

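The number of genes called between vector and vehicle, 3 at a 2-fold change with an adjusted p under 0.05, depended on the processing. It was 0 with DESeq2 (232 genes at an unadjusted p under 0.05) and 0 with at least 10 counts in every library (540 genes in edgeR), 1 in a fit of the 4 control libraries, 6 with RLE factors, 8 without AY036118 and 11 with no minimum count, and from 2 to 22 when 1 control library was left out. By adjusted p alone it was 8 under 0.05 and 31 under 0.1, the latter chosen after seeing the data. Without histone genes, Rn7s1 and Rn7s2, also chosen after seeing the data, it was 2. Vector and vehicle share no replicate number, so no pairing between them was possible. A replicate block within each experiment gave 0 calls (635 genes at an unadjusted p under 0.05), and the crossed replicate block, added because same-numbered vector and ADAR1 p150 libraries had a correlation of -0.114 in their deviations, gave 23. Those in the 12-HETE experiment had -0.0798. Treatments against the other kind of control gave 2266 genes for 12-HETE and 2119 for ADAR1 p150 by adjusted p alone, against 1176 and 1084 with the 2-fold change. Of 108 recomputed list medians 103 kept their sign, and from 15 to 18 of the 18 lists stayed below all genes, 15 without vehicle replicate 5. RLE factors moved the median of all genes from -0.01 to 0.05. None of the 15 fold changes of single genes named by threshold or rank changed sign in these settings. The cause of these differences was not tested. Depth limited genes with a mean count from 10 to 20, where the interval lay within 2-fold for 17.7%.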

Other observations

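The non-coding gene Gm39008 had larger counts outside the controls, and its difference between vector and vehicle did not pass the threshold (log2 fold change 0.55, adjusted p = 0.445 in edgeR). It had 18 and 31 counts in vehicle and 30 and 38 in vector, against 298 and 282 with 12-HETE and 322 and 381 with ADAR1 p150. Tsix, the antisense RNA of the Xist locus, which silences an X chromosome, had between 80 and 102 counts in the 4 controls, against 1292 and 1398 with 12-HETE and 1811 and 1779 with ADAR1 p150. Xist had between 0 and 6 counts in the controls and between 26 and 43 in the treated libraries, and the spans of both genes overlap on opposite strands. Tsix and Xist were chosen after their values were seen. In these genes both kinds of control were close to each other and both treatments were on the same side of them, and the cause was not tested.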
